A study of Mus musculus with 2 samples.

Results

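The let-7 microRNAs and their close relative miR-98 were examined at the 9 genes that lie outside the clusters of miR-99/100 and miR-125. These are Mirlet7a-1, Mirlet7f-1, Mirlet7d, Mirlet7c-2, Mirlet7b, Mirlet7f-2, Mir98, Mirlet7g and Mirlet7i, taken by their GENCODE M21 symbols from 2202 annotated microRNA genes. The data are 2 microRNA-seq libraries, biological replicates 1 and 2 of 1 group, made from RNA shorter than 30 bases of the left cerebral cortex. The tissue came from adult male 5xFAD/CAST mice at an age of 8 to 10 months. The 5xFAD mouse is a model of amyloid deposition with transgenes driven in neurons by the Thy1 promoter, and CAST mice descend from wild-caught animals. Whether the sampled animals carried the transgenes is not in the labels. The tissue samples are separate but share a donor identifier, so the spread between the libraries may be technical. No control mice were analysed here, so the results are levels and not effects of a condition.

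MicroRNAs are cut from hairpin precursors, each of which yields a 5p and a 3p arm. The seed, bases 2 to 8 of the mature microRNA, pairs with target messenger RNAs and leads to their repression. The let-7 family accumulates as cells differentiate and represses growth and proliferation genes, among them Hmga2, Lin28 and members of the Ras family, and it is abundant in the adult brain. The RNA-binding protein LIN28 holds back the processing of let-7 precursors in stem cells and progenitors.

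The 8 distinct 5p sequences of the 9 genes are shown first, because the seed makes them a family and the bases outside it bear on which locus a read can be assigned to. Sequences are RefSeq entries on GRCm38.p6, which matched for 9 of 9 genes, and capitals mark the seed.
let-7a-5p (Mirlet7a-1): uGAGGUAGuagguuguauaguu
let-7f-5p (Mirlet7f-1 and Mirlet7f-2): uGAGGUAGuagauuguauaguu
let-7d-5p (Mirlet7d): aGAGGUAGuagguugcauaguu
let-7c-5p (Mirlet7c-2): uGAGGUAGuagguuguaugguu
let-7b-5p (Mirlet7b): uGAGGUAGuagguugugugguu
miR-98-5p (Mir98): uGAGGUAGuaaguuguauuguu
let-7g-5p (Mirlet7g): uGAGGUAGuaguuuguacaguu
let-7i-5p (Mirlet7i): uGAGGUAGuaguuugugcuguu

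All of these carry the seed GAGGUAG. With let-7e-5p included, the 9 distinct sequences of the family were identical at 14 of 22 positions. Counted from 1 at the 5′ end and with let-7a-5p as the reference, let-7f-5p differed only by G12A and let-7c-5p only by A19G. The sequence of let-7b-5p differed by A17G and A19G, that of miR-98-5p by G11A and A19U, and that of let-7g-5p by G12U and U18C. The 5p sequence of let-7d differed by U1A, ahead of the seed, and by U16C. The most distant from let-7a-5p was let-7i-5p, with G12U, A17G, U18C and A19U. Among the members' sequences, let-7b-5p and let-7c-5p differed by 1 base, and let-7d-5p and let-7i-5p by 6.

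**Figure D1:**
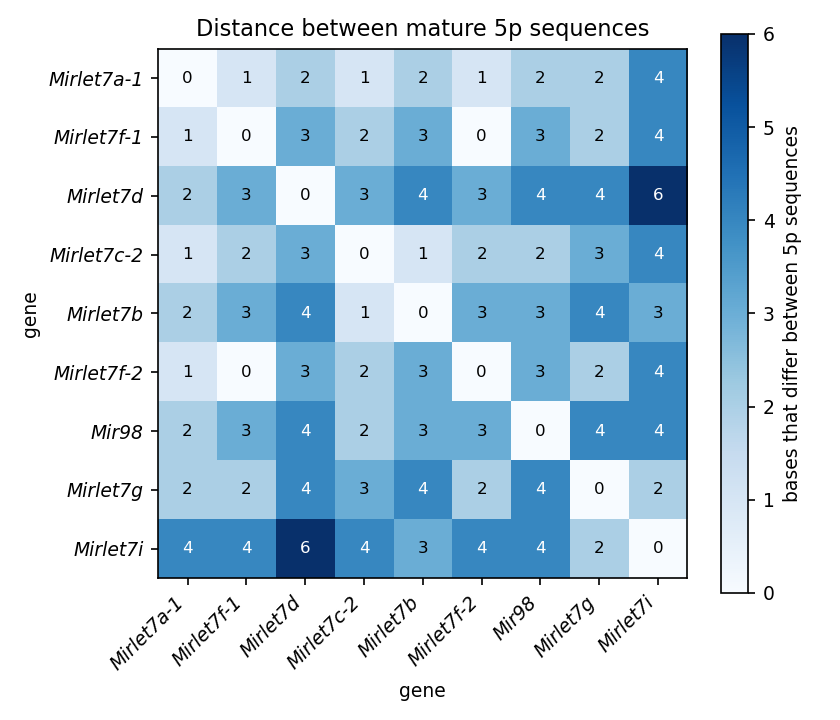
Number of bases that differ between the mature 5p sequences of each pair of the 9 genes, with a gene on each axis and the number in each cell. Mirlet7f-1 and Mirlet7f-2 share a single sequence and differ at 0 bases, and Mirlet7d against Mirlet7i is the widest pair at 6.

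The 3p arms are shown for the genes whose 5p sequence occurs at another locus and for their neighbours. Some loci with the same mature 5p sequence have distinct mature 3p sequences.
let-7a-1-3p and let-7c-2-3p: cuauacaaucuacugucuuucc
let-7f-1-3p: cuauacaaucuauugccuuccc
let-7f-2-3p: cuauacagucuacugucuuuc
let-7d-3p: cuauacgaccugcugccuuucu
let-7b-3p: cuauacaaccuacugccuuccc
miR-98-3p: cuauacaacuuacuacuuuccu

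Mirlet7a-1 and Mirlet7c-2 held no mature sequence of their own. The 5p sequence of Mirlet7a-1 was also found at Mirlet7a-2, that of Mirlet7c-2 also at Mirlet7c-1, and their 3p sequences were identical to each other. Mirlet7f-1 and Mirlet7f-2 shared their 5p sequence but had distinct 3p sequences. The remaining 5 genes, Mirlet7d, Mirlet7b, Mir98, Mirlet7g and Mirlet7i, had both arms at no other annotated microRNA gene. These 5 are called single-copy below and the other 4 multi-copy, by the 5p sequence. A read that starts at the first base of the 5p arm would need 24 bases to occur at Mirlet7a-1 or Mirlet7c-2 alone among the annotated microRNA genes, and 23 at Mirlet7f-1 or Mirlet7f-2. It would need 17 bases at Mirlet7b, Mirlet7g or Mirlet7i, 11 at Mir98 and at most 10 at Mirlet7d. The longest stretch shared with another microRNA gene was 26 bases for Mirlet7a-1 and Mirlet7c-2, 22 for Mirlet7f-1 and Mirlet7f-2, and from 14 to 19 for the single-copy genes. The search covered exact matches in annotated microRNA genes on either strand, and no other part of the genome was searched.

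The letters GGAG, a motif that LIN28 is known to bind in let-7 precursors, were searched on the transcribed strand of the annotated genes. They lay between the arms of Mirlet7a-1, Mirlet7f-1, Mirlet7d, Mirlet7f-2, Mirlet7g and Mirlet7i, which are 6 of the 9 genes, and nowhere in Mirlet7c-2, Mirlet7b and Mir98. Of all 2202 microRNA genes, 37.2% held GGAG. The letters UGAU lay between the arms of Mirlet7f-1, Mirlet7b and Mirlet7g and elsewhere in Mirlet7a-1. Thus 4 of the 9 genes held UGAU, against 25.2% of all genes and 28.5% of those 417.

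By annotation the 9 genes fall on 5 transcription units of mm10. Mirlet7a-1 (chromosome 13, 48538179 to 48538272, minus strand), Mirlet7f-1 (48537829 to 48537917) and Mirlet7d (48536012 to 48536114) overlap an exon of the long non-coding RNA 6720427I07Rik. Mirlet7c-2 (chromosome 15, 85706603 to 85706697, plus strand) and Mirlet7b (85707319 to 85707403) overlap exons of the non-coding Lncppara, Mirlet7c-2 in 2 of its 2 annotated transcripts and Mirlet7b in 1. Mirlet7f-2 (chromosome X, 151912346 to 151912428, plus strand) and Mir98 (151913214 to 151913321) lie in an intron of Huwe1, which encodes a ubiquitin ligase. Mirlet7g (chromosome 9, 106178840 to 106178927, plus strand) lies in an intron of Wdr82, which encodes a subunit of a histone methyltransferase complex. Mirlet7i (chromosome 10, 122985640 to 122985724, minus strand) lies within the transcribed pseudogene D630033A02Rik, in an exon of 1 annotated transcript and an intron of the other.

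Sense reads in microRNA genes numbered 4929428 of 16403925 in replicate 1 and 4441328 of 16991914 in replicate 2. Levels are given as reads per 1000000 such assigned reads (CPM), and a mean ± SD is over the 2 libraries (n = 2). Another 6320188 reads in replicate 1 and 5615203 in replicate 2 mapped to several places and are not in any gene count. Of 13 neuronal marker genes 11 were detected, with at least 10 reads in each library, and their summed level was 55454 and 66503 CPM in replicates 1 and 2. The rise in this sum rests on Mir132, at 19682 and 44698 CPM, and without it the sum was 35772 and 21805 CPM. Of the 11 detected neuronal markers, 8 were lower in replicate 2, among them Mir128-1 at 13556 and 7493 CPM and Mir137 at 12338 and 6351 CPM. Among the 13 markers the 3 loci of miR-124, a defining neuronal microRNA, were nearly empty, led by Mir124a-1 with 21 and 12 reads. The loci of miR-9, miR-128 and miR-138, also made from several loci, ranged widely. They ran from Mir9-2 with 12 and 16 reads to Mir128-1 with 66823 and 33278. The part of the number of loci in these counts was not tested. Summed marker levels of other cells, in replicates 1 and 2, were 20418 and 21812 CPM for vessels, 3387 and 5618 CPM for oligodendrocytes, 1680 and 767 CPM for choroid plexus and ependyma, 1338 and 1131 CPM for leukocytes and microglia, and 602 and 88.5 CPM for red blood cells. Liver, muscle and stem cell markers stayed at or below 69.0 CPM in either library. In bulk tissue, fewer cells of a type and less RNA per cell cannot be told apart.

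Each of the 9 genes was detected, and their sum was 27.0% of the assigned reads in replicate 1 (exact 95% interval 26.9% to 27.0%) and 28.8% in replicate 2 (28.7% to 28.8%). Intervals here and below cover counting error only. Nearly all of this came from 4 genes. Of the reads of the 9 genes, Mirlet7g took 37.2% and 38.9% in replicates 1 and 2, Mirlet7b 25.6% and 24.5%, Mirlet7i 18.1% and 17.8%, and Mirlet7d 15.8% and 14.8%. The 4 multi-copy genes together took 2.18% and 2.31% of them. By transcription unit, the chromosome 15 pair took 7.05% and 7.20% of all assigned reads, the chromosome 13 trio 4.33% in either library, and the Huwe1 pair 0.685% and 0.953%.

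Mirlet7g stood at 100229 and 111925 CPM in replicates 1 and 2, and it ranked second of all genes in both libraries. Mirlet7b stood at 68974 and 70637 CPM, and ranked just below it in both. Mirlet7i was at 48713 and 51204 CPM. These 3 genes and Mirlet7d were the members among the 10 highest genes of the libraries, by mean level. Mirlet7d was at 42692 and 42476 CPM in replicates 1 and 2, the smallest relative spread of the 9, with a coefficient of variation of 0.357%. The ranges of Mirlet7g, Mirlet7b, Mirlet7i and Mirlet7d did not overlap, and each step in this order was larger than the spread between the libraries.

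The other 5 genes were at least 10 times lower than Mirlet7d by their means. Mirlet7f-2 stood at 3719 and 4505 CPM in replicates 1 and 2. Mir98 stood at 3133 and 5028 CPM, the widest relative spread of the 9 (coefficient of variation 32.8%). Their ranges overlapped, so that their order cannot be given: Mirlet7f-2 was the higher in replicate 1 and Mir98 in replicate 2. Mirlet7c-2 was at 1489 and 1343 CPM, below both of them in each library. Mirlet7a-1 was at 369 and 417 CPM. Mirlet7f-1 was at 288 and 384 CPM, and the ranges of these last 2 genes overlapped, although Mirlet7a-1 was above Mirlet7f-1 within each library. A read stands for a mature microRNA and not for a piece spread over the gene, so counts were not divided by length in these values. The annotated genes are 83 to 108 bases long, and per 100 bases the order of the 9 means was the same.

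**Figure D2:**
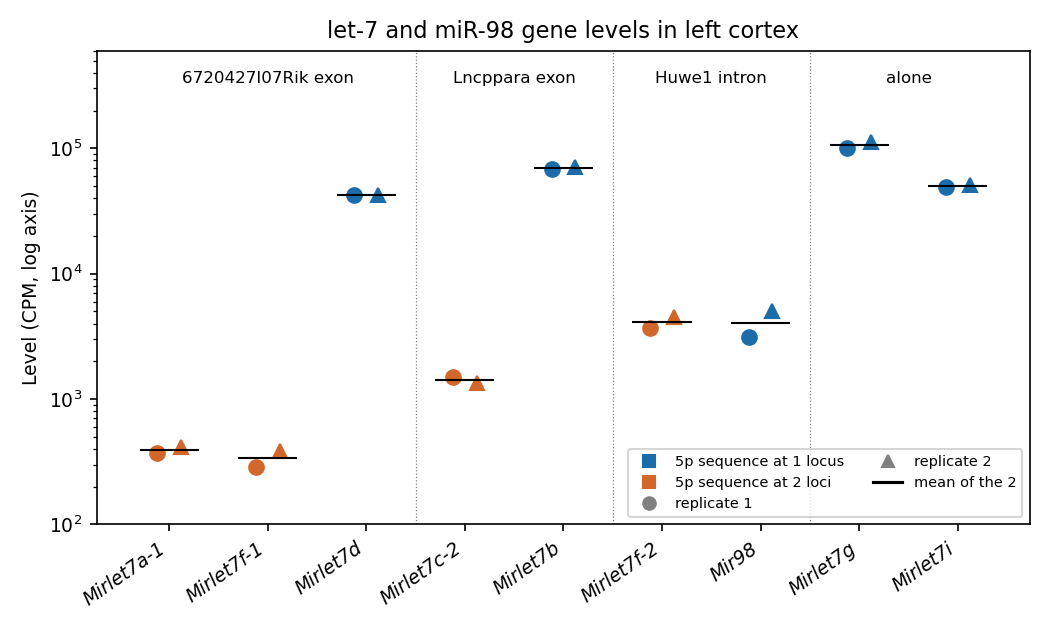
Level of each gene in CPM on a log axis, in replicate 1 (circles) and replicate 2 (triangles), with the mean as a line and genes grouped by transcription unit. Single-copy genes (blue) reach from 3133 to 111925 CPM and multi-copy genes (orange) from 288 to 4505 CPM, and only Mir98 among the single-copy genes lies within reach of the multi-copy ones.

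The single-copy genes were higher than the multi-copy genes in both libraries, apart from Mir98. As log2(CPM + 1), the median of the 5 single-copy genes was 15.57 in replicate 1 and 15.64 in replicate 2, and that of the 4 multi-copy genes was 9.54 and 9.55. The difference of the medians was 6.06 ± 0.04 (SD, n = 2). In replicate 1 the groups overlapped, as Mir98, the lowest single-copy gene at 3133 CPM, was below Mirlet7f-2 at 3719 CPM. In replicate 2 they did not, with Mir98 at 5028 CPM above Mirlet7f-2 at 4505 CPM. Genes are not replicates and no test was made over them. Reads from the 5p arm of a multi-copy gene match 2 annotated loci when they are no longer than the mature sequence, and reads of several locations are held apart in the files, so the counts of these 4 genes are uncertain and their part in the difference was not tested.

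A split of the other microRNA genes by their 5p or unlabelled mature sequence did not separate levels in this way. Of the 2202 genes, 979 had a 5p or unlabelled mature sequence in the RefSeq table. A gene that shares only its opposite arm with another locus counted as single-copy here, whichever arm its reads came from. Counts per gene do not tell the arms apart, so the part of such genes in the comparison was not tested. Without the 9 members, 317 of 886 single-copy genes (35.8%) and 33 of 84 multi-copy genes (39.3%) were detected. Over those detected, the median of the mean levels was 84.9 CPM for single-copy and 114 CPM for multi-copy genes. Over all of them, detected or not, it was 0.563 and 0 CPM. The upper ends differed: 67 of the 317 detected single-copy genes and 5 of the 33 multi-copy genes reached 1000 CPM, and the highest were Mir139 at 126656 CPM and Mir138-1 at 3033 CPM. Among the members, the 5 single-copy genes and 2 of the 4 multi-copy genes, Mirlet7f-2 and Mirlet7c-2, reached 1000 CPM.

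**Figure D3:**
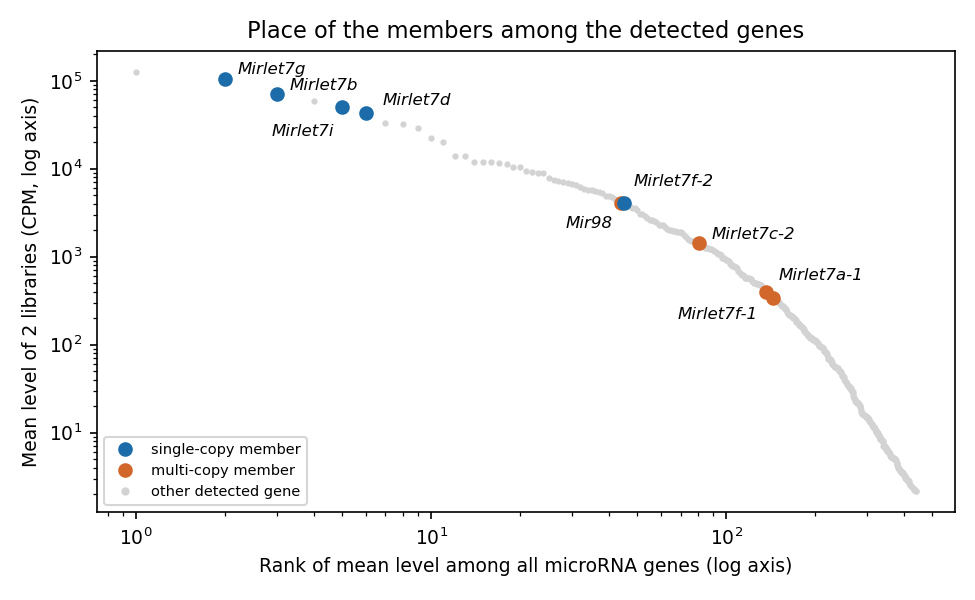
Mean level of the 2 libraries in CPM against rank, both on log axes, for the detected microRNA genes (grey) and the 9 members (blue single-copy, orange multi-copy). Mirlet7g, Mirlet7b, Mirlet7i and Mirlet7d hold ranks 2, 3, 5 and 6, Mirlet7f-2 and Mir98 ranks 44 and 45, and Mirlet7c-2, Mirlet7a-1 and Mirlet7f-1 ranks 81, 136 and 144.

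Genes on the same transcription unit differed widely in count where a single-copy and a multi-copy gene lay side by side, except in Huwe1. Reads mapping to several places are in no count, so the counts of the multi-copy genes are uncertain here too. Their part in these ratios was not tested. On chromosome 13, Mirlet7d had 210445 and 188652 reads in replicates 1 and 2, and Mirlet7a-1 had 1820 and 1854. Their ratio was 116 in replicate 1 and 102 in replicate 2. Mirlet7f-1, which lies 261 bases from Mirlet7a-1 and 1714 bases from Mirlet7d, had 1422 and 1706 reads. Mirlet7d exceeded it 148-fold and 111-fold. The multi-copy neighbours Mirlet7a-1 and Mirlet7f-1 were close to each other, at a ratio of 1.28 and 1.09. On chromosome 15, Mirlet7b had 340003 and 313724 reads and Mirlet7c-2, 621 bases away, had 7341 and 5963. The ratio was 46.3 in replicate 1 and 52.6 in replicate 2.

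In Huwe1, by contrast, Mir98 had 15444 and 22331 reads and Mirlet7f-2, 785 bases away, had 18332 and 20008. Their ratio was 0.842 in replicate 1 and 1.12 in replicate 2, so neither gene was above the other in both libraries. Per base of annotated gene, Mir98 was below Mirlet7f-2 by a mean log2 ratio of -0.42. Over the 107 pairs of adjacent detected genes on a strand within 10 kb of each other, the median difference in mean level was 7.12-fold. Only 2 pairs were wider apart than Mirlet7d and Mirlet7f-1, and 15 were wider apart than Mirlet7b and Mirlet7c-2. By mean level the Huwe1 pair was the closest of them, at 1.01-fold, and the 106 other pairs were wider apart. Its differences in the 2 libraries had opposite directions and partly cancelled in the mean, so this place does not hold for each library. These pairs were described and not tested, and the same limit on the counts of multi-copy genes holds for them.

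**Figure D4:**
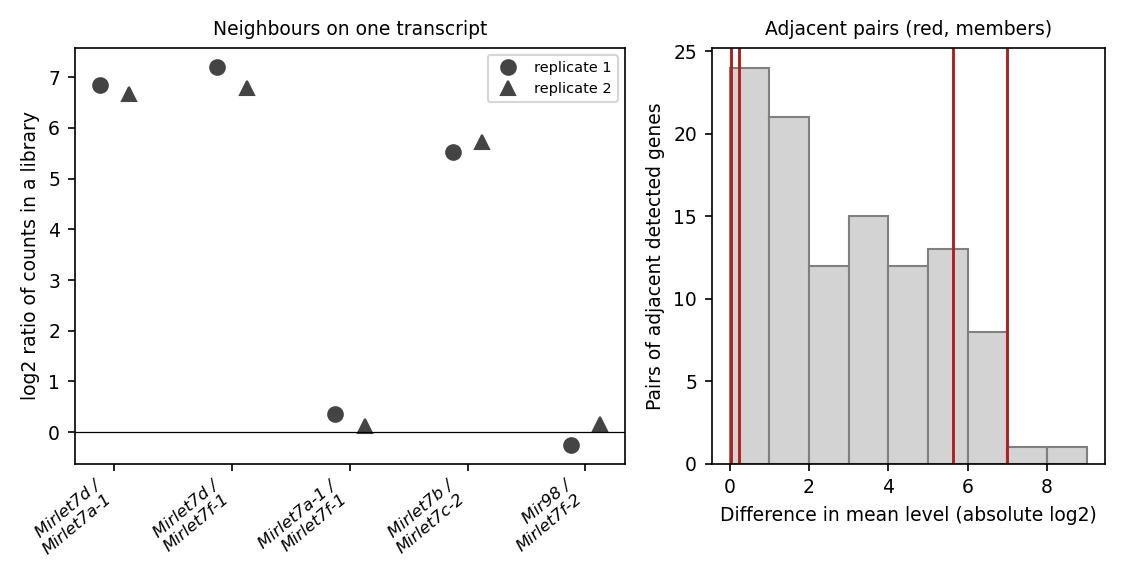
Left, log2 ratio of the counts of neighbouring members within replicate 1 (circles) and replicate 2 (triangles). Right, number of adjacent pairs of detected genes by their absolute log2 difference in mean level, with the 4 adjacent pairs of members in red. The red lines stand at the absolute mean of the log2 ratios of counts in the 2 libraries, which differs slightly from the binned measure. Ratios with Mirlet7d and Mirlet7b sit between 5.53 and 7.21 in either library, and those of Mirlet7a-1 to Mirlet7f-1 and Mir98 to Mirlet7f-2 lie near 0.

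The ratio of 2 neighbours within a library does not depend on how libraries are scaled, so its change between the libraries was compared directly. The Mir98 to Mirlet7f-2 ratio was higher in replicate 2 by 0.41 on the log2 scale (exact conditional 95% interval 0.36 to 0.45). The Mirlet7b to Mirlet7c-2 ratio was higher by 0.18 (0.13 to 0.23). The ratio of Mirlet7d to Mirlet7a-1 moved by -0.18 (-0.28 to -0.09), that of Mirlet7d to Mirlet7f-1 by -0.42 (-0.52 to -0.32), and that of Mirlet7a-1 to Mirlet7f-1 by -0.24 (-0.38 to -0.10). The intervals of the 5 ratios excluded 0, as did those of 64.5% of the 107 adjacent pairs. None of the 5 changed by 1.5-fold or more, while 33.6% of the adjacent pairs did. The intervals hold counting error alone and compare these 2 libraries.

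Loci with the same 5p sequence on different transcription units also differed in count. Mirlet7f-2 had 12.3 times the reads of Mirlet7f-1 by the mean log2 ratio, and the ratio of Mirlet7f-1 to Mirlet7f-2 was 0.0776 and 0.0853 in replicates 1 and 2. Mirlet7c-2 exceeded Mirlet7c-1, which lies in a miR-99/125 cluster, by a ratio of 2.34 and 2.82. Mirlet7a-1 exceeded Mirlet7a-2, also in such a cluster, by 1.20 and 1.67. Mirlet7a-1 and Mirlet7c-2, whose 3p sequences are identical, stood at a ratio of 0.248 and 0.311. Which arm the reads of these loci came from is not given by counts per gene. Reads mapping to several places are in no count, so the counts of these loci are uncertain. The part of such reads in these ratios was not tested.

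The rest of the family comprised the 3 let-7 genes inside miR-99/125 clusters and the further annotated genes with the seed, Mir7k and Mir1961. The 3 cluster genes took 2.85% and 3.14% of the assigned reads, nearly all of it from the single-copy Mirlet7e at 27525 and 30721 CPM. Mirlet7a-2 was at 307 and 250 CPM and Mirlet7c-1 at 637 and 476 CPM. Mir7k, which encodes let-7k, had 4 reads in replicate 1 and 0 in replicate 2. Mir1961 had 0 reads in either, which allows up to 0.609 and 0.675 CPM, the level of 3 reads.

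Between the libraries the members differed little in size. Each of the 417 detected genes was tested by the exact binomial distribution, two-sided, and p-values were adjusted over them by Benjamini-Hochberg. Of the 9 members 8 passed the threshold of 0.05, against 59.2% of all detected genes. Higher in replicate 2 were 7 members, against 24.7% of the detected genes, and 1 was lower, against 34.5%. None was 2-fold apart, against 11.8%. The median log2 ratio of replicate 2 to replicate 1 was 0.16 over the 9 members and -0.05 over the 417 genes, and the median size of the difference was 1.12-fold over the members and 1.29-fold over all. Deep counts pass such a test at small differences: of the 270 genes that reached 100 reads in both libraries, 80.7% were called. The test holds counting error alone and compares these 2 libraries, not conditions. Across the detected genes the fitted coefficient of variation between the libraries was 0.340 (edgeR common dispersion).

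The widest difference was that of Mir98, 1.60-fold higher in replicate 2, with a log2 ratio of 0.68 (exact 95% interval 0.65 to 0.71). By the size of its difference it stood at place 102 of the 417 genes. Mirlet7f-1 followed at 0.41 (0.31 to 0.52) and Mirlet7f-2 at 0.28 (0.25 to 0.31). Under each scaling tried these 3 stayed higher in replicate 2. Mirlet7c-2 was the lower one, at -0.15 (-0.20 to -0.10). Mirlet7a-1 at 0.18, Mirlet7g at 0.16, Mirlet7i at 0.07 and Mirlet7b at 0.03 were higher per assigned read, but per read of the whole library, assigned or not, they turned to -0.024, -0.042, -0.13 and -0.17, and the median of the 417 genes moved to -0.25. Mirlet7d was at -0.01 (-0.02 to 0.00) and did not pass (adjusted p = 0.168, exact binomial test), and with TMM factors it turned to 0.040 and with DESeq2 size factors to 0.014, both past the threshold. The summed markers of oligodendrocytes were also higher in replicate 2 and those of choroid plexus and of red blood cells lower. In each of the last 2 lists, 2 of the 3 detected markers were lower and 1 was higher. Of the neuronal markers, Mir132 was higher and the sum of the others lower, and the part of these marker lists in the members' differences was not tested.

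**Figure D5:**
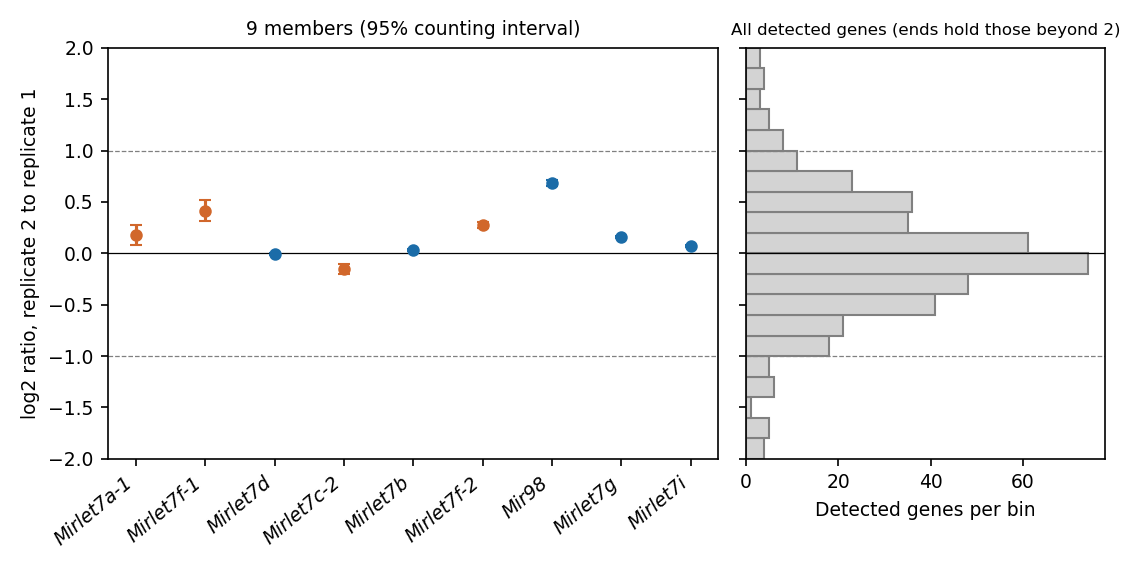
Left, log2 ratio of replicate 2 to replicate 1 for the 9 members (points) with exact 95% intervals from counting (bars), single-copy in blue and multi-copy in orange. Right, number of detected genes per bin of the same ratio. The members lie between -0.15 and 0.68, inside the dashed lines at 2-fold, beyond which 11.8% of the detected genes fall. Per read of the whole library Mirlet7a-1, Mirlet7g, Mirlet7i and Mirlet7b lie below 0, and with TMM or DESeq2 factors Mirlet7d lies above it.

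Nearest to each member among the other detected genes, by the Euclidean distance of log2(CPM + 1) over the 2 libraries, were genes of several families. Mirlet7c-2 lay at 0.03 from Mir668 (1505 and 1366 CPM) and Mir98 at 0.08 from Mir320 (3317 and 4979 CPM), which was also nearest to Mirlet7f-2 at 0.22. Mirlet7f-1 lay at 0.12 from Mir125b-2 (268 and 403 CPM), and Mirlet7a-1 at 0.19 from Mir1224 (410 and 387 CPM). The abundant members had no close match: Mir744 was nearest to Mirlet7i at 0.41 and to Mirlet7b at 0.51, Mir139 to Mirlet7g at 0.43 and Mir127 to Mirlet7d at 0.66. With 2 libraries this measures little beyond the level itself.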

How the data were processed

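The authors deposited raw read counts per GENCODE M21 microRNA gene on mm10 for each library, per the note deposited with each file. How reads were aligned and counted is not given in the sources used here. Sense counts were used, whose strand was inferred from their match to the annotation. Counts are per precursor gene, so arms are not told apart, and reads mapping to several places (38.5% and 33.0% of all reads), unmapped reads (25.6% and 34.3%) and reads outside microRNA genes (5.82% and 6.54%) stayed out of library sizes. CPM scales the assigned reads of a library to 1000000, and 1 read is worth 0.203 and 0.225 CPM in replicates 1 and 2. The mm10 coordinates come from GENCODE M21 and mature sequences from RefSeq on GRCm38.p6, the same genome.

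The members and lists were chosen with earlier results of these data known. With 1 group there is no contrast, and the libraries were compared by exact binomial tests (scipy 1.17.1) over genes with at least 10 reads in each, and neighbours by the conditional odds ratio (R 4.3.3), both tested on simulated data. TMM factors and the dispersion came from edgeR 4.0.16, and size factors from DESeq2 1.42.0. The genes named are the 9 members, the rest of the family and the nearest gene to each member. Single markers and the highest gene of each copy class were chosen after their values were seen, as context.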

Additional observations from a re-analysis of the deposited data

Results flagged for a closer look

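Reads on the strand opposite to Mirlet7b, which no comparison used, numbered 7 in replicate 1 and 9 in replicate 2, above the 3 reads that a count of 0 allows. They stand against 340003 and 313724 sense reads.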

How the results depend on the processing

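The alternatives kept most results. The difference of the medians of single-copy and multi-copy genes stayed near its log2 value of 6.06, with 6.22 per 100 bases of gene and 6.63 over all 12 family genes, and from 6.04 to 6.09 without either replicate. The share of reads taken by the 9 genes became 30.0% without regard to strand, and 7.81% of all reads, assigned or not, and lay between 27.0% and 28.8% without either replicate. In the count without strand Mirlet7f-1 is listed at 0, so its ratios could not be computed there. Gm24111 overlaps it on the other strand, and the part of this overlap in the count of 0 was not tested. The median of the 9 levels was taken in each library and averaged over the 2 libraries. It was 4373 CPM, 1216 per 1000000 reads of any kind, and from 3719 to 5028 CPM without either replicate.

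Per base of gene, the log2 ratio of Mirlet7d to Mirlet7a-1 was 6.63, that of Mirlet7b to Mirlet7c-2 5.79 and that of Mir98 to Mirlet7f-2 -0.42. The last was -0.04 in the mean, and without replicate 1 it turned to 0.16 and without replicate 2 it was -0.25. Without either replicate the log2 ratios of Mirlet7d to Mirlet7a-1 ran from 6.67 to 6.85, of Mirlet7d to Mirlet7f-1 from 6.79 to 7.21, of Mirlet7a-1 to Mirlet7f-1 from 0.12 to 0.36 and of Mirlet7b to Mirlet7c-2 from 5.53 to 5.72.

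Per read of the whole library, 3 members were higher in replicate 2 and 5 lower, in place of 7 and 1, and the median log2 ratio turned to -0.042. That denominator lowered every gene alike. The log2 ratios then turned to -0.024 for Mirlet7a-1, -0.17 for Mirlet7b, -0.042 for Mirlet7g and -0.13 for Mirlet7i. Mirlet7d turned to 0.040 with TMM factors and 0.014 with DESeq2 size factors. No paired analysis was possible because there is 1 group. Among the 9 genes, counting error was relatively largest for Mirlet7a-1 and Mirlet7f-1, with intervals of 352 to 387 and 274 to 304 CPM in replicate 1. These intervals do not cover the reads mapping to several places, which are in no gene count and whose genes of origin are not given.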
